A study of Mus musculus with 12 samples.

Results

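Injured kidney epithelium switches on a small set of transcripts that are used as damage markers, and 10 of them were examined here: Lcn2, Havcr1, Cd44, Cd9, Tnfrsf12a, Sox9, Clu, Spp1 and the simple epithelial keratins Krt8 and Krt18. They, and the gene lists set beside them below, were chosen by name with earlier results of these data known. Counts over them are therefore descriptions and not independent tests. Each gene was read from the probe set with the highest mean signal over all 12 arrays among those annotated to that symbol alone. 9 of the 10 genes had such a probe set, and all 9 entered the tests, among 11920 genes tested of 18193 with a probe set. Spp1, which encodes the secreted ligand osteopontin, was not analysed here.

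The arrays were made from the RNA of sieved kidney glomeruli of female mice aged 8 to 10 weeks, and the study asked how genetic background shapes anti-glomerular basement membrane glomerulonephritis (anti-GBM GN). There were 4 groups of 3 mice: C57BL6J controls, C57BL6J mice with anti-GBM GN, 129S2SvPAs controls (spelled 129S2SvPAS on their labels) and 129S2SvPAs mice with anti-GBM GN. The nephritic mice had been given nephrotoxic serum, an antiserum that binds the glomerular filter, on days 0, 1 and 2, and glomeruli were collected on day 4. What the controls received is not given in the sources used here.

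As background, lipocalin-2 and kidney injury molecule-1 (the products of Lcn2 and Havcr1) are low in healthy kidney and appear in tubule cells after damage. CD44 and CD9 mark the activated parietal epithelial cells that line Bowman's capsule and migrate onto the tuft in crescentic nephritis. Keratins 8 and 18 pair to form the intermediate filaments of simple epithelia, which in the kidney are tubule and capsule cells rather than mature podocytes.

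6 of the 9 measured genes rose with nephritis in the 129S2SvPAs strain, where 10.6% of all genes were called higher, and 4 of them also rose in C57BL6J, where 4.78% were. In contrast, Sox9 and both keratins did not pass the test in either strain. Lcn2 changed most: its difference of mean log2 signals from the controls corresponded to 92.0-fold in 129S2SvPAs and 9.89-fold in C57BL6J. Krt18 was instead set apart by strain, being higher in 129S2SvPAs with and without nephritis.

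Lcn2, Tnfrsf12a, Cd44 and Cd9 were the genes that rose in both strains, so the 150 bases upstream of their RefSeq transcription starts are shown (mouse build GRCm38.p6, all 4 genes on the minus strand, written 5′ to 3′ along the gene, from position -150 to -1). Capitals mark the GC box GGGCGG, the core site of Sp1-type factors, on either strand. The stretches lie at chr2:32387740-32387889 for Lcn2, chr17:23677450-23677599 for Tnfrsf12a, chr2:102901666-102901815 for Cd44 and chr6:125494761-125494910 for Cd9.
Lcn2: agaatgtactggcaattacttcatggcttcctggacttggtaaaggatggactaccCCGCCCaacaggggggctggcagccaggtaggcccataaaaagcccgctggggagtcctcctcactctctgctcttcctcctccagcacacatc
Tnfrsf12a: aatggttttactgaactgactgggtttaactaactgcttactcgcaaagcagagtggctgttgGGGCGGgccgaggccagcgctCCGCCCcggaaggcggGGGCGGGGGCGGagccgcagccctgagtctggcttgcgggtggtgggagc
Cd44: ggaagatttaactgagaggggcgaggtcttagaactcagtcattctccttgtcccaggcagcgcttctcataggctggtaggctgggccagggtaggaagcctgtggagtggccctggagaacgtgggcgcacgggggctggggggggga
Cd9: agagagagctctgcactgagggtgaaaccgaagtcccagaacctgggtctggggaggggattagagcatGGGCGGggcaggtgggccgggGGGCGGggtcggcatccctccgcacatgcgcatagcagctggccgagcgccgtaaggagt
The Tnfrsf12a stretch holds 4 GC boxes, the Cd9 stretch 2, the Lcn2 stretch 1 and the Cd44 stretch none.

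The motif search covered the whole RefSeq window, 250 bases before to 50 after each start, on both strands, for the 8 genes of the 10 that had one (11 windows, none for Sox9 or Clu). The GC box was found in 4 of the 8 genes (Lcn2, Tnfrsf12a, Cd44 and Cd9) and in 35.7% of all 32851 windows. Cd44 has its copy at position 4 after the start, and Tnfrsf12a has a further one at -191. The kappa-B letters GGGNNTTTC occurred in Cd9 alone, at -228, against 4.36% of all windows, and the AP-1 letters TGANTCA in Havcr1 alone, at 11 after the start, against 7.81%. TATAAA occurred in Krt8 and Spp1, against 13.6% of windows. The STAT letters TTCNNNGAA, the CRE letters TGACGTCA and the TEAD letters GGAATG were in none of the 8 genes and in 8.3%, 1.79% and 14.7% of all windows. A gene was counted if any of its windows held the letters, so counts of genes and shares of windows are unlike measures. These are letter matches in short windows and not measured binding.

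Levels below are log2 signals as deposited, over a range of 1.12 to 15.02, with array medians of 2.99 to 3.06. Differences are between group means, with standard errors (SE) and p-values from limma fitted on all 12 arrays and adjusted by the Benjamini-Hochberg method over the 11920 genes. A gene is said to rise or fall where its adjusted p is under 0.05. 7 of the 9 genes read above the table median of 3.03 on 12 of 12 arrays; Cd44 did so on 10 and Havcr1 on 8, and Havcr1 passed the filter mainly through its nephritic arrays. On 129S2SvPAs anti-GBM GN replicate 1 the profile stood apart, with r of 0.974 and 0.973 to the other two arrays of its group, which correlated at 0.994 with each other. Results that rest on it are therefore also given without it. The p-values rest on the spread between mice within groups of 3. It was pooled over the 4 groups and moderated towards that of other genes.

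**Figure D1:**
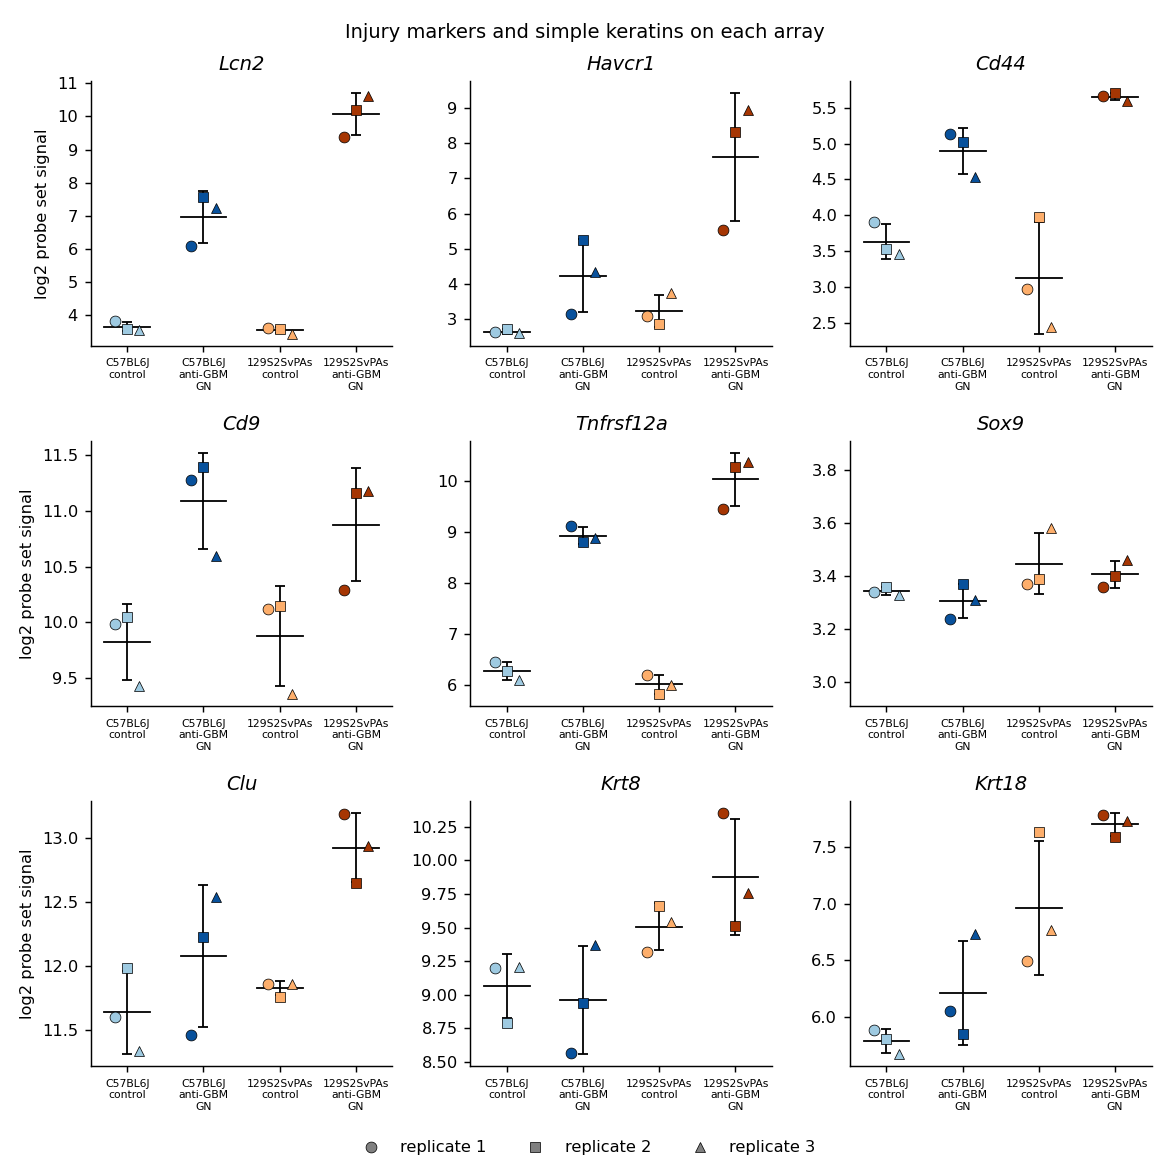
Log2 probe set signal (vertical axis, scaled per gene) of the 9 measured genes on each of the 12 arrays, by strain and treatment (horizontal axis); symbols are the replicates, long bars the group means and whiskers 1 SD. All nephritic arrays lie above all controls of their strain for Lcn2, Havcr1, Cd44, Cd9 and Tnfrsf12a, while Sox9 stays between 3.24 and 3.58 throughout.

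The secreted products come first. Lcn2 encodes lipocalin-2, which binds iron-carrying siderophores. Its 6 control arrays lay a little above the table median of 3.03, at 3.81, 3.59 and 3.56 in C57BL6J and 3.60, 3.59 and 3.44 in 129S2SvPAs. Nephritic C57BL6J glomeruli read 6.08, 7.56 and 7.24, and nephritic 129S2SvPAs glomeruli read 9.37, 10.20 and 10.63. Neither pair of groups overlapped within a strain, and every nephritic 129S2SvPAs array lay above every nephritic C57BL6J array. The change was 3.31 in C57BL6J (SE 0.37, limma adjusted p = 0.000436) and 6.52 in 129S2SvPAs (SE 0.37, limma adjusted p = 4.2e-06). Ranked by size, the latter was the top increase of the 11920 genes, and the former ranked 20.

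The response of Lcn2 was larger in 129S2SvPAs by 3.22 (95% interval 2.06 to 4.37, limma adjusted p = 0.0307), the rank 2 increase among all genes for that difference. No other gene among the 9 passed this test, against 0.268% of all genes higher and 0.294% lower, and 4 of the 9 had an unadjusted p under 0.05, all with the larger response in 129S2SvPAs. The difference for Lcn2 stayed between 2.78 and 3.57 when any array was left out, but the call was lost in 9 of the 12 leave-outs (adjusted p 0.058 to 0.0921, the exceptions being 129S2SvPAs anti-GBM GN replicate 1 and C57BL6J anti-GBM GN replicates 1 and 2) and without the filter on low signals (0.0696).

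Neutrophil granules also hold lipocalin-2, so the neutrophil markers are given beside it. Of 10 neutrophil markers on the array, 4 passed the filter, and Mpo, Elane, Ngp, Camp, Cxcr2 and Mmp8 read 2.21 to 2.31 on average, near the low end of the table. The mean of the 4 was 4.52 to 5.47 in C57BL6J controls, 4.67 to 5.63 in C57BL6J nephritis, 3.67 to 3.88 in 129S2SvPAs controls and 4.02 to 4.82 in 129S2SvPAs nephritis. Ltf was the only one called in either response, higher by 0.78 in C57BL6J. Within 129S2SvPAs the nephritic means all lay above the control means, and S100a8 and S100a9 changed by 1.02 and 1.64 there without a call. The part of neutrophils in the Lcn2 result was not tested.

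Clusterin, the product of Clu, is a secreted chaperone that coats damaged proteins and cell debris. Clu read 11.60, 11.98 and 11.33 in C57BL6J controls and 11.46, 12.23 and 12.54 in C57BL6J nephritis, and those groups overlapped. In 129S2SvPAs the controls were tight at 11.86, 11.76 and 11.86, and the nephritic arrays, at 13.19, 12.65 and 12.94, all lay above them. Clu rose by 1.10 in 129S2SvPAs (SE 0.26, limma adjusted p = 0.0126), while the C57BL6J change was 0.44 (95% interval -0.13 to 1.01, limma adjusted p = 0.379). The difference of 0.66 between those changes did not pass the test (limma adjusted p = 0.584), so the 2 strains were not shown to differ. The other 3 probe sets of Clu gave changes of 1.03 to 1.27 in 129S2SvPAs and of 0.37 to 0.42 in C57BL6J.

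Among the surface receptors, Tnfrsf12a encodes Fn14, the receptor for the cytokine TWEAK, which signals through TRAF adaptors. Controls read 6.45, 6.28 and 6.10 in C57BL6J and 6.20, 5.83 and 6.01 in 129S2SvPAs. With nephritis the signals were 9.12, 8.80 and 8.89 in C57BL6J and 9.45, 10.28 and 10.39 in 129S2SvPAs, above all 6 controls and again without overlap between the strains. Tnfrsf12a rose by 2.66 (SE 0.23, limma adjusted p = 8.86e-05) and by 4.03 (SE 0.23, limma adjusted p = 4.2e-06), a 6.32-fold and a 16.3-fold change of the signal. The response was larger in 129S2SvPAs by 1.37 (95% interval 0.66 to 2.07), which did not pass the test over all genes (limma adjusted p = 0.122). Without 129S2SvPAs anti-GBM GN replicate 1, the lowest of its group, the difference was 1.66 and passed (limma adjusted p = 0.00811). A second probe set of Tnfrsf12a gave 2.90, 4.27 and the same difference of 1.37 (limma adjusted p = 0.105).

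Havcr1 encodes kidney injury molecule-1, a phosphatidylserine receptor of injured proximal tubule cells. It read 2.64, 2.72 and 2.60 in C57BL6J controls and 3.09, 2.87 and 3.76 in 129S2SvPAs controls, around or below the table median. C57BL6J nephritis gave 3.16, 5.24 and 4.33, all above the strain's controls but far apart from each other. In 129S2SvPAs nephritis the signals were 5.53, 8.32 and 8.95. Havcr1 rose by 4.36 in 129S2SvPAs (SE 0.76, limma adjusted p = 0.00256), rank 6 of all genes, while the change of 1.59 in C57BL6J had a 95% interval of -0.09 to 3.27 and did not pass (limma adjusted p = 0.266). The responses differed by 2.77 (95% interval 0.39 to 5.15, limma adjusted p = 0.376). Without 129S2SvPAs anti-GBM GN replicate 1 that difference was 3.81 and passed (limma adjusted p = 0.0291).

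Havcr1 has a second probe set that behaved unlike the first. It stayed between 2.89 and 2.97 on 10 arrays and reached 6.59 and 7.08 on 129S2SvPAs anti-GBM GN replicates 2 and 3 only. Its change was 2.58 in 129S2SvPAs (limma adjusted p = 0.0428) and 0.02 in C57BL6J, and the average of the 2 responses, 2.98 with the first probe set, was 1.30 and not called (limma adjusted p = 0.117). So the 129S2SvPAs increase was seen by both probe sets in replicates 2 and 3, and the raised readings in C57BL6J nephritis and in replicate 1 of 129S2SvPAs nephritis came from 1 probe set.

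CD44 is the main receptor for the matrix sugar hyaluronan and also binds osteopontin. Cd44 read 3.91, 3.53 and 3.46 in C57BL6J controls and rose to 5.14, 5.02 and 4.53 in nephritis, a change of 1.26 (SE 0.32, limma adjusted p = 0.0391). In 129S2SvPAs it went from 2.97, 3.97 and 2.44 to 5.66, 5.70 and 5.60, a change of 2.53 (SE 0.32, limma adjusted p = 0.000369). Groups did not overlap in either strain, and the nephritic 129S2SvPAs arrays lay within 0.10 of each other on the probe set used. The larger change in 129S2SvPAs (difference 1.26, limma adjusted p = 0.331) went with a wide spread among its controls (SD 0.78) and shrank to 0.46 on a second probe set, which gave 1.45 in C57BL6J and 1.91 in 129S2SvPAs. That second probe set read 4.68, 5.75 and 5.28 on the nephritic 129S2SvPAs arrays. The other two Cd44 probe sets were flat, between 2.54 and 2.72 on every array, with changes of at most 0.04. The C57BL6J call was lost when any of 5 of the 6 arrays was left out (adjusted p 0.0690 to 0.144, the exception being C57BL6J anti-GBM GN replicate 3).

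**Figure D2:**
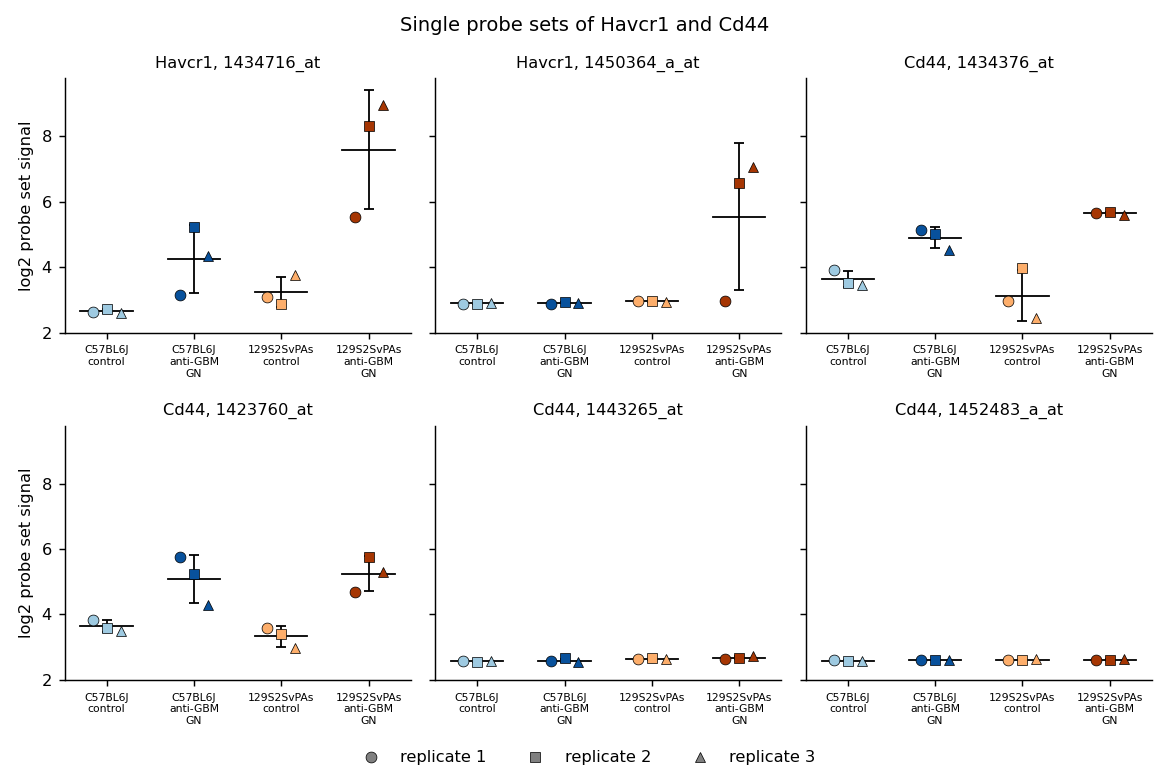
Log2 signal (vertical axis) of each probe set annotated to Havcr1 or Cd44 alone, on each array, by group (horizontal axis), with means and 1 SD. The second Havcr1 probe set leaves its floor of 2.89 to 2.97 on 2 arrays, and 2 of the 4 Cd44 probe sets stay between 2.54 and 2.72 on all 12.

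Cd9 encodes a tetraspanin that organises integrins and the growth factor precursor HB-EGF at the cell surface. It was abundant already in controls, at 9.99, 10.05 and 9.43 in C57BL6J and 10.12, 10.15 and 9.36 in 129S2SvPAs. Nephritis gave 11.28, 11.39 and 10.60 in C57BL6J and 10.29, 11.16 and 11.18 in 129S2SvPAs. Those arrays did not overlap with their controls, although the lowest nephritic 129S2SvPAs array stood only a little above the highest control. Cd9 rose by 1.27 in C57BL6J (SE 0.32, limma adjusted p = 0.0376) and by 1.0 in 129S2SvPAs (SE 0.32, limma adjusted p = 0.048), with a difference of -0.27 (95% interval -1.26 to 0.73). Without 129S2SvPAs anti-GBM GN replicate 1 that difference was 0.03. Each single-strain call was lost in 5 of 6 leave-outs (adjusted p up to 0.160 in C57BL6J and 0.153 in 129S2SvPAs, the exceptions being C57BL6J anti-GBM GN replicate 3 and 129S2SvPAs anti-GBM GN replicate 1), whereas the average of the 2 responses, 1.13 (limma adjusted p = 0.00391), was called in all 12.

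CD9 is also abundant on platelets, whose markers moved in the same arrays. The mean of 5 platelet genes tested, of 7 listed, was 3.08 to 3.81 in C57BL6J controls and 5.24 to 5.99 in C57BL6J nephritis, and 2.88 to 2.93 and 4.39 to 4.88 in 129S2SvPAs. Pf4 rose by 4.31 and 4.86 and Ppbp by 4.77 and 2.24, in C57BL6J and 129S2SvPAs, and Gp9 rose by 1.36 in C57BL6J. The part of platelets in the Cd9 result was not tested. In whole glomerular RNA, more cells of a type and more RNA per cell cannot be told apart, for this and every gene here.

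SOX9, a transcription factor of repairing tubule cells, gave no measured response. Sox9 read 3.34, 3.36 and 3.33 in C57BL6J controls and 3.24, 3.37 and 3.31 in nephritis, and 3.37, 3.39 and 3.58 in 129S2SvPAs controls and 3.36, 3.40 and 3.46 in nephritis. Its changes were -0.04 in both strains, with 95% intervals of -0.25 to 0.17. All 3 probe sets of Sox9 read between 2.47 and 3.58 on every array, close to the array medians, so the arrays bound its change only at this low signal.

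Krt8 and Krt18, the 2 keratin genes, are chromosomal neighbours with 2 other genes between them, neither protein coding (Gm36026 and Gm41404). Krt8 read 9.20, 8.79 and 9.21 in C57BL6J controls, 8.57, 8.94 and 9.37 in C57BL6J nephritis, 9.32, 9.66 and 9.54 in 129S2SvPAs controls and 10.35, 9.51 and 9.76 in 129S2SvPAs nephritis. Nephritic and control arrays overlapped in both strains. Its change was -0.11 in C57BL6J (95% interval -0.65 to 0.44, limma adjusted p = 0.880) and 0.37 in 129S2SvPAs (95% interval -0.18 to 0.91, limma adjusted p = 0.344). The intervals leave room for a change of up to 0.91 in 129S2SvPAs.

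Krt18 read 5.88, 5.80 and 5.67 in C57BL6J controls and 6.05, 5.85 and 6.73 in nephritis. In 129S2SvPAs the controls, at 6.49, 7.63 and 6.77, all exceeded the C57BL6J controls, and the nephritic arrays read 7.78, 7.59 and 7.73. The response was 0.43 in C57BL6J (limma adjusted p = 0.439) and 0.74 in 129S2SvPAs (95% interval 0.11 to 1.36, limma adjusted p = 0.0928), neither called. Control replicate 2 of 129S2SvPAs reached the level of the nephritic arrays, and without it the 129S2SvPAs change was 1.07 and passed (limma adjusted p = 0.0110).

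Counted over the list, nephritis raised 4 of the 9 genes in C57BL6J (Lcn2, Cd44, Cd9 and Tnfrsf12a), where 4.78% of all genes were called higher. In 129S2SvPAs it raised 6 of 9, with Havcr1 and Clu added, against 10.6% of all genes, and the average of the 2 responses gave the same 6 against 13.0%. Not one of the 9 was called lower in any comparison, nor had an unadjusted p under 0.05 in that direction in limma, against 2.31% of all genes called lower in C57BL6J and 9.77% in 129S2SvPAs. Arrays did not overlap for 5 of the 9 genes in C57BL6J (background 13.2%) and for 6 in 129S2SvPAs (background 16.4%). The median change over the 9 was 1.26 and 1.10, beside -0.03 and 0.00 over all genes tested. 7 of the 9 changed more in 129S2SvPAs, the exceptions being Cd9 (-0.27) and Sox9 (-0.003), whose differences were 0.03 and 0.02 without 129S2SvPAs anti-GBM GN replicate 1. The median difference of responses was 0.66 over the 9 and 0.027 over all genes tested, and only Lcn2 passed the test of that difference. When one array at a time was left out, 2 to 4 genes were called in C57BL6J and 5 or 6 in 129S2SvPAs; the count of 2 came from leaving out any C57BL6J control or C57BL6J anti-GBM GN replicate 1 or 2.

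**Figure D3:**
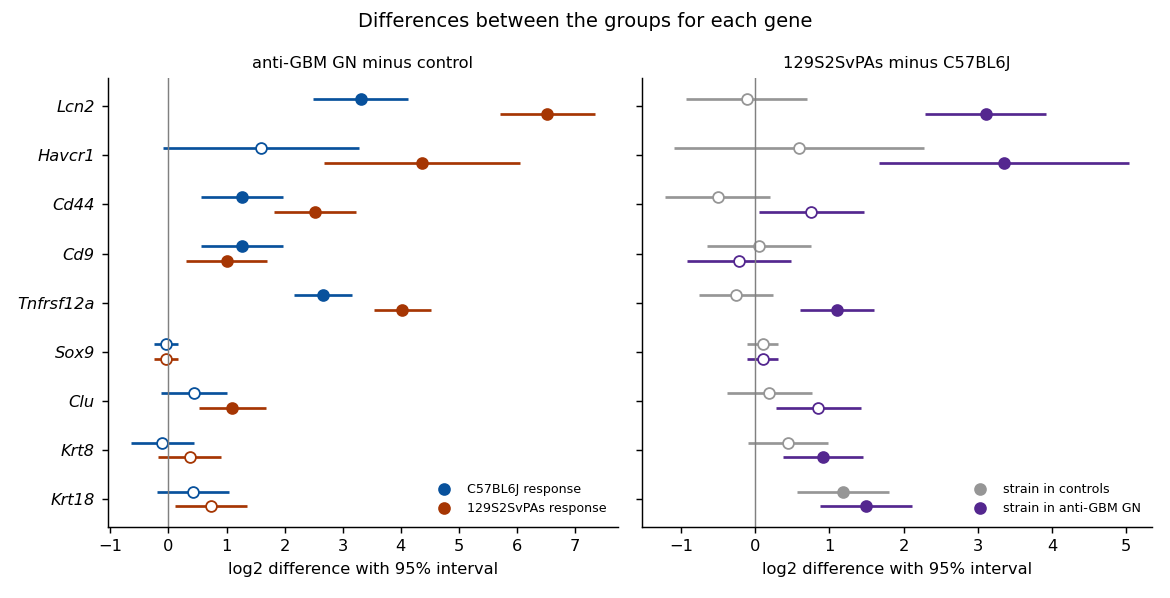
Log2 differences with 95% intervals (horizontal axis) for the 9 genes (vertical axis): nephritis minus control in each strain on the left, and the strain difference (129S2SvPAs minus C57BL6J) without and with nephritis on the right; filled symbols passed the limma test. Lcn2 and Tnfrsf12a have the clearest gap between the strains' responses, and Krt18 alone is filled in the control comparison.

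Between the strains, the controls differed in 1 of the 9 genes. Krt18 was 1.18 higher in 129S2SvPAs controls (SE 0.28, limma adjusted p = 0.0273), where 3.32% of all genes were called higher and 5.11% lower. Krt8, its filament partner, was 0.44 higher (95% interval -0.10 to 0.98, limma adjusted p = 0.334). The control arrays of the strains also did not overlap for Havcr1, Sox9 and Krt8, all higher in 129S2SvPAs, so that 4 of 9 were separated against 17.3% of all genes. For Havcr1 and Sox9 these gaps lay at signals near the array medians. Lcn2 and Tnfrsf12a were not called between the controls, with differences of -0.11 (limma adjusted p = 0.905) and -0.26 (limma adjusted p = 0.558). The Krt18 call was lost without 129S2SvPAs control replicate 2 or any of the C57BL6J controls (adjusted p 0.0508 to 0.0871).

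Between nephritic mice, 5 of the 9 genes were higher in 129S2SvPAs, where 3.49% of all genes were called higher and 4.89% lower. Lcn2 was higher by 3.11 (SE 0.37, limma adjusted p = 0.000453), Havcr1 by 3.36 (SE 0.76, limma adjusted p = 0.021) and Tnfrsf12a by 1.10 (SE 0.23, limma adjusted p = 0.0125). Krt18 was higher by 1.49 (SE 0.28, limma adjusted p = 0.00811) and Krt8 by 0.91 (SE 0.25, limma adjusted p = 0.0446). Arrays of the strains did not overlap for 7 of the 9, all but Cd9 and Sox9, against 15.3% of all genes. Clu and Cd44 were among the separated genes with differences of 0.85 (limma adjusted p = 0.075) and 0.76 (limma adjusted p = 0.197), and Cd9 differed by -0.21 (limma adjusted p = 0.743). On a second Cd44 probe set the nephritic arrays of the strains overlapped, with a difference of 0.15 (limma adjusted p = 0.837). The other Clu probe sets gave 0.86, 0.98 and 0.85 (limma adjusted p = 0.039, 0.0817 and 0.0913).

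3 of these calls were lost when single arrays were left out. The Krt8 difference was 0.68 without 129S2SvPAs anti-GBM GN replicate 1 (limma adjusted p = 0.103), was also lost without 129S2SvPAs replicate 3 or C57BL6J anti-GBM GN replicate 1 or 2 (adjusted p up to 0.161) and had an adjusted p of 0.0627 with the replicate block, a fit that takes the replicate number as a factor. The other two probe sets of Krt8 gave 1.03 (limma adjusted p = 0.0484) and 0.89 (limma adjusted p = 0.0445). Havcr1 lost its call without 129S2SvPAs anti-GBM GN replicate 2 or 3 or C57BL6J anti-GBM GN replicate 1 or 3 (adjusted p 0.052 to 0.0859) and with its second probe set (2.63, limma adjusted p = 0.0733), and was 4.39 higher without 129S2SvPAs replicate 1 (limma adjusted p = 0.000619). Tnfrsf12a lost its call without C57BL6J anti-GBM GN replicate 2 (adjusted p 0.0540). The array of 129S2SvPAs anti-GBM GN replicate 1 was the lowest of its group for Lcn2, Havcr1, Cd9 and Tnfrsf12a and the highest for Krt8, Krt18 and Clu.

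Binding partners of these proteins were measured beside them, 18 tested of 27 listed. In C57BL6J 4 of the 18 rose and none fell (7 and 1 at an unadjusted p under 0.05 in limma). In 129S2SvPAs 8 rose and 3 fell. Over all genes 4.78% rose and 2.31% fell in C57BL6J, and 10.6% rose and 9.77% fell in 129S2SvPAs. The medians were 0.40 and 0.24, beside -0.03 and 0.00 over all genes. Without 129S2SvPAs anti-GBM GN replicate 1, 6 rose and 2 fell in 129S2SvPAs, with the calls of Hbegf, Itgav and Lrp2 lost.

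For Lcn2 the uptake receptors moved the other way in 129S2SvPAs: Slc22a17, the lipocalin-2 receptor, fell by 0.96 (SE 0.16, limma adjusted p = 0.00198), and Lrp2, the tubular endocytic receptor megalin, fell by 0.83 (limma adjusted p = 0.0468, lost without 129S2SvPAs anti-GBM GN replicate 1). In C57BL6J their changes were -0.23 and -0.16, not called. Slc22a17 was 0.82 higher in 129S2SvPAs controls than in C57BL6J controls (limma adjusted p = 0.0104). Its means in nephritis were 5.51 in 129S2SvPAs and 5.42 in C57BL6J. Clusterin is also bound by megalin and by the lipoprotein receptor Vldlr, whose changes were -0.35 in C57BL6J and -0.41 in 129S2SvPAs, not called. For Tnfrsf12a, the adaptor Traf2 rose by 0.79 in 129S2SvPAs (limma adjusted p = 0.00972) and changed by 0.30 in C57BL6J without a call. The TWEAK gene Tnfsf12 and the adaptor Traf3 were not analysed here.

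Cd44 was accompanied by strain-specific behaviour of Hmmr, a second hyaluronan receptor that is also a spindle protein of dividing cells. Hmmr went from 2.93 to 3.23 in C57BL6J controls to 4.75 to 5.25 in nephritis, a rise of 1.98 (SE 0.15, limma adjusted p = 3.33e-05), and stayed between 3.10 and 3.46 in 129S2SvPAs. The responses of Hmmr differed by -1.79 (SE 0.21, limma adjusted p = 0.00559), the opposite order to that of Lcn2. Cd74, which joins CD44 in the receptor for the cytokine MIF, was 1.39 lower in nephritic 129S2SvPAs than in nephritic C57BL6J (SE 0.31, limma adjusted p = 0.0195; lost without 129S2SvPAs anti-GBM GN replicate 1), and Mif fell by 0.43 in 129S2SvPAs. The hyaluronan synthases Has1, Has2 and Has3 and the proteases Mmp7 and Mmp9 did not pass the filter on low signals.

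Among the partners of Cd9, the tetraspanin Cd151 rose by 0.55 in C57BL6J and 1.01 in 129S2SvPAs (SE 0.11, limma adjusted p = 0.0120 and 0.000146). Ptgfrn, an immunoglobulin-family partner, rose by 0.96 and Hbegf by 0.88 in 129S2SvPAs. Igsf8 and the tetraspanin Cd81 were not called in either strain. The integrin chains that bind osteopontin included the largest changes of the list: Itgb3, which is also the platelet integrin beta chain, rose by 3.98 in C57BL6J and 2.50 in 129S2SvPAs, and Itgb1 by 1.23 and 1.48. Itga9 rose by 2.10 in 129S2SvPAs, was 1.71 higher in its controls and 3.10 higher in its nephritic glomeruli than in C57BL6J (SE 0.34, limma adjusted p = 0.000251). Itgav rose by 0.44 in 129S2SvPAs, and Itga4 was not called. For Havcr1, the relative Timd2 was 1.76 lower in 129S2SvPAs controls (limma adjusted p = 0.00527), and Timd4 and Havcr2 did not pass the filter.

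Krt8 and Krt18 were set beside 16 tested genes for other keratins, intermediate filaments and the plaque proteins that anchor them. In C57BL6J 4 of the 16 rose and none fell (7 and 1 at an unadjusted p under 0.05 in limma). In 129S2SvPAs 9 rose and 1 fell. The shares of all genes were 4.78% rising and 2.31% falling in C57BL6J, and 10.6% and 9.77% in 129S2SvPAs. The medians were 0.43 and 0.73, beside -0.03 and 0.00 over all genes. Those that rose in both strains were not keratins: vimentin (Vim, 2.49 and 3.12), plectin (Plec, 1.75 and 2.01), desmin (Des, 1.5 and 1.81) and nestin (Nes, 1.57 and 2.64). Vimentin, desmin and nestin are filament proteins of mesenchymal cells and podocytes. Vim rose with an SE of 0.17 and limma adjusted p-values of 2.05e-05 and 3.98e-06, from 9.73 to 10.23 in C57BL6J controls to 12.29 to 12.67, while Krt8 on the same arrays was not called. The desmosomal genes Dsp and Pkp2 were, like Krt8 and Krt18, higher in nephritic 129S2SvPAs than in nephritic C57BL6J, by 0.63 (limma adjusted p = 0.0315) and 0.59 (limma adjusted p = 0.0466), calls that were lost without 129S2SvPAs anti-GBM GN replicate 1. No gene of this list passed the test of the difference of responses in limma (3 with an unadjusted p under 0.05).

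Chosen after their values were seen, Krt20 was the one further keratin called in the response of a strain: it rose by 1.55 in 129S2SvPAs (limma adjusted p = 0.0355), with 0.69 in C57BL6J not called. The simple keratins Krt7 (0.04 and 0.23) and Krt19 (0.45 and 0.08) were, like Krt8 and Krt18, not called in C57BL6J or 129S2SvPAs.

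A second list held 24 tested genes of epithelial injury and repair. In C57BL6J 16 of the 24 rose and in 129S2SvPAs 21, all 16 in both, and none fell in either strain, also not at an unadjusted p under 0.05 in limma. Of all genes, 4.78% rose in C57BL6J and 10.6% in 129S2SvPAs, and 2.31% and 9.77% fell. The median change was 1.30 and 2.39, beside -0.03 and 0.00 over all genes. In 129S2SvPAs the lowest p-values belonged to Timp1, an inhibitor of matrix proteases (3.09), the chemokine Cxcl1 (3.76), the adhesion molecule Vcam1 (2.52) and Anxa2 (2.80), and in C57BL6J to Vcam1 (2.81), the tubulin Tubb6 (3.81), the cell cycle inhibitor Cdkn1a (3.82) and Nupr1 (2.36). With Lcn2, 3 of these genes had a larger response in 129S2SvPAs: the lipid droplet gene Plin2 by 2.37 (SE 0.28, limma adjusted p = 0.00586), Timp1 by 1.75 (limma adjusted p = 0.0307) and Cxcl1 by 2.38 (limma adjusted p = 0.0358). Over all genes 0.268% were called in that direction. Of the 24, 22 changed more in 129S2SvPAs, with a median difference of 0.65, beside 0.027 over all genes tested. Between the strains, 3.32% of all genes were called higher and 5.11% lower in 129S2SvPAs controls, and 3.49% and 4.89% in nephritis. In controls 4 of the list were lower in 129S2SvPAs (Plin2 by 1.23 on the log2 scale, for example) and none higher (3 at an unadjusted p under 0.05 in limma), and in nephritis 6 were higher and 1 lower, with Timp1, Cxcl1, the haem oxygenase Hmox1 (2.32) and Plin2 (1.14) at the lowest p-values among those higher.

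**Figure D4:**
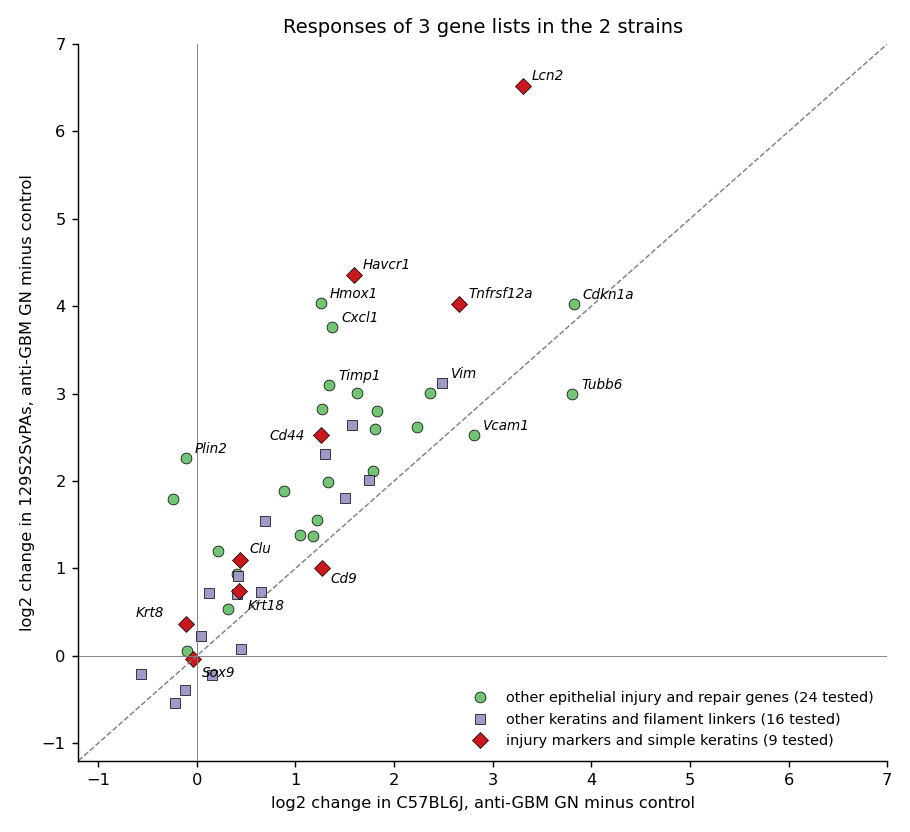
Log2 change with nephritis in C57BL6J (horizontal axis) against 129S2SvPAs (vertical axis) for the 9 genes and 2 further lists, 1 point a gene; the dashed line marks equal change. Lcn2 lies highest, at 3.31 and 6.52, Tubb6 and Vcam1 lie below the line, and Krt8, Krt18 and Sox9 lie near the origin.

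Markers of the cells that could carry these transcripts are given as means of log2 signals over each list's tested genes. For counts of markers called, the shares of all genes were 4.78% higher and 2.31% lower in C57BL6J nephritis. They were 10.6% and 9.77% in 129S2SvPAs nephritis. Between the strains they were 3.32% higher and 5.11% lower in 129S2SvPAs controls, and 3.49% and 4.89% in nephritis. Podocyte transcripts were present, led by Podxl and Synpo, with list means of 6.53 to 8.95. All 20 proximal tubule markers passed the filter too, led by Fbp1 and Miox, so tubule RNA was in the samples. The tubule list mean was above the podocyte list mean on every array. No whole kidney was measured beside the glomeruli, so their purity could not be judged. The 20 averaged 12.10 to 12.41 in C57BL6J controls, 11.71 to 12.07 in C57BL6J nephritis, 12.37 to 12.58 in 129S2SvPAs controls and 11.54 to 11.72 in 129S2SvPAs nephritis. Havcr1 and Lcn2, which injured tubule cells make, were highest in the group where these markers had the lowest mean. With nephritis 3 of the 20 fell in C57BL6J and 8 in 129S2SvPAs, and none rose. Single changes in 129S2SvPAs ran from -4.40 to 0.73, so the mean does not measure the amount of tubule RNA. Markers of later nephron segments, from the loop of Henle to the collecting duct (15 tested of 16, led by Umod and Calb1), also fell, 1 of them in C57BL6J and 7 in 129S2SvPAs, with 2 rising there. In controls, where Krt18 was higher in 129S2SvPAs, their mean was 8.69 to 8.95 in C57BL6J and 9.19 to 9.27 in 129S2SvPAs; in nephritis, where both keratins were higher, it was 8.11 to 8.85 and 8.27 to 8.63. The part of tubule RNA in these results was not tested.

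Parietal cell markers (7 tested of 8, led by Cd24a and Prom1) averaged 6.75 to 6.93 and 7.0 to 7.21 in C57BL6J controls and nephritis, and 6.63 to 6.95 and 6.88 to 7.09 in 129S2SvPAs. None of the 7 was called in the response of either strain, while Cd44 and Cd9 rose. At an unadjusted p under 0.05 in limma, 2 were higher and 1 lower in C57BL6J, and 1 was higher in 129S2SvPAs. In the average of the 2 responses, 2 of the 7 were called higher, against 13.0% of all genes. Podocyte markers (9 tested of 12) differed by strain: all 9 were lower in 129S2SvPAs controls, with means of 6.58 to 7.31 against 8.27 to 8.95, and 5 of 9 in nephritis, with 6.53 to 6.83 against 7.72 to 8.74. With nephritis 1 of the 9 rose and 1 fell in C57BL6J, and 3 rose and 2 fell in 129S2SvPAs. The strain gap in controls was not limited to podocyte markers. The 9 endothelial markers were lower in 129S2SvPAs controls by 0.75 to 1.49, with 2 called and 8 at an unadjusted p under 0.05 in limma. In nephritis they were lower by 0.19 to 1.85, with 1 called. Mesangial markers differed by -1.05 to 0.21 in controls, with 2 of 7 called lower. The part of these gaps in the strain differences was not tested.

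CD44 is also carried by leukocytes, and 13 of 16 macrophage and leukocyte markers were tested, led by Lyz2 and Csf1r. Their mean was 5.30 to 6.07 and 5.65 to 6.58 in C57BL6J controls and nephritis and 4.40 to 5.54 and 5.08 to 5.23 in 129S2SvPAs. Only Cd14 of the 13 was called in each response, rising by 1.82 in C57BL6J and 4.16 in 129S2SvPAs, a difference of 2.34 (limma adjusted p = 0.0193). With an unadjusted p under 0.05 in limma, 5 of the 13 were higher and 0 lower in C57BL6J. In 129S2SvPAs 2 were higher and 2 lower by that measure. In nephritis 6 of the 13 were lower in 129S2SvPAs than in C57BL6J and Cd14 was higher, by 2.21 (limma adjusted p = 0.00025). The part of leukocytes in the Cd44 result was not tested. Of 7 T cell markers on the array 2 passed the filter, Cd4 and Cd8a, with means between 2.84 and 3.37 and no call (none at an unadjusted p under 0.05 in limma either). Mesangial markers, led by Itga8 and Rgs5, rose in 3 of 7 genes in C57BL6J and 4 in 129S2SvPAs, and of 9 endothelial markers, led by Emcn and Tek, none rose and 1 fell in C57BL6J and 3 rose and 1 fell in 129S2SvPAs.

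**Figure D5:**
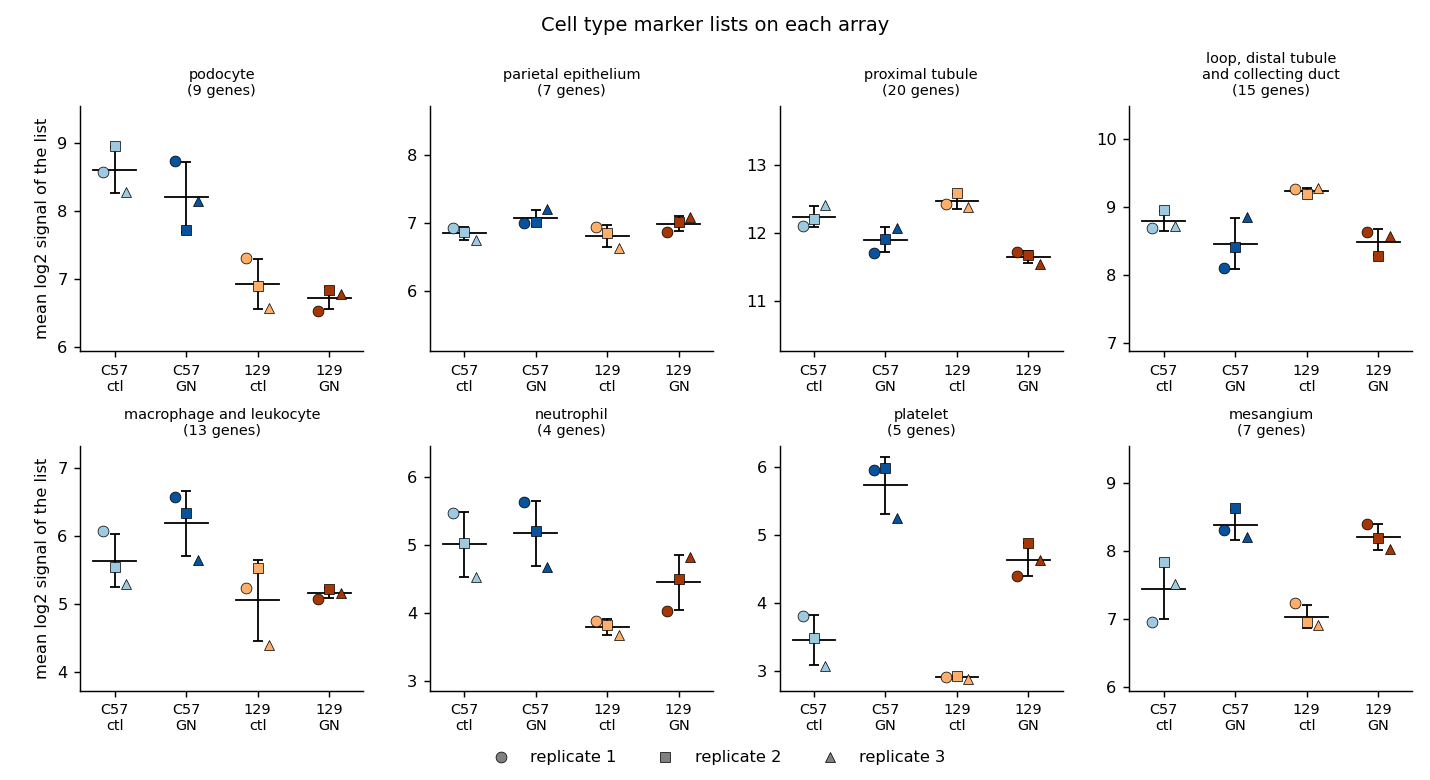
Mean log2 signal (vertical axis, 3.6 units in every panel) of the tested genes of 8 cell type marker lists on each array, by group (horizontal axis; C57 is C57BL6J, 129 is 129S2SvPAs, ctl control and GN anti-GBM GN), with group means and 1 SD. Platelet markers are higher and proximal tubule markers lower in nephritis in both strains, and podocyte markers are lower in 129S2SvPAs.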

How the data were processed

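Per the labels, glomeruli were isolated with 100 and 45 µm sieves and their total RNA was labelled with biotin for Affymetrix arrays. The deposited table holds 1 log2 signal for each of 45037 probe sets on 12 arrays; MAS5 and GCRMA are named in the submitters' processing notes without saying which made the values. 34945 probe sets had 1 gene symbol, 932 several and 9160 none. Groups came from sample titles; the description field reads as nephritis on the controls too.

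With limma 3.58.1 in R 4.3.3, 4 group means were fitted to genes above the table median on at least 3 arrays (total df 10.71), after a check on simulated data. No scanner-level background was used, so low signals have no detection limit. No 2 arrays were identical. Named partners and list genes are the 4 with the lowest p in each comparison and the partners of each gene discussed. The genes and lists were chosen with earlier results of these data known. Promoters are from RefSeq.

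Same-numbered arrays deviated together between C57BL6J control and nephritis (r 0.208 to 0.33) and between the control groups (r 0.239 to 0.284), not in the other pairs (r -0.38 to 0.183). Alternatives covered scaling, filter, probe set, prior, array weights, samples fitted, replicate block and each array left out.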

Additional observations from a re-analysis of the deposited data

Results flagged for a closer look

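The responses of Lcn2 in the 2 strains differed by a test of the difference itself: the log2 change with nephritis was larger in 129S2SvPAs than in C57BL6J by 3.22 (SE 0.52, limma adjusted p = 0.0307). All 3 nephritic 129S2SvPAs arrays lay above all 3 nephritic C57BL6J arrays, and the 6 controls lay between 3.44 and 3.81.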

How the results depend on the processing

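No called change of the 9 genes reversed under any alternative; of 948 recomputed changes 873 kept their side of the threshold, 62 lost a call and 13 gained one. The count of 6 genes called in 129S2SvPAs, and in the average response, stayed within 1.5 times under all alternatives (5 to 6 and 6 to 7 when an array was left out). The stricter filter, a cut at a log2 signal of 6.06, left Havcr1, Cd44 and Sox9 untested, so their results were not rechecked under it. Without the filter on low signals, which raises the number of genes tested to 18193, 2 genes were called in C57BL6J, 0 for the difference of responses, 3 between nephritic mice and 0 between controls; Lcn2 then had an adjusted p of 0.0696 for the difference. With only the groups compared in the fit, 2 were called between nephritic mice and 0 between controls. Havcr1, with group SDs of 0.06 in C57BL6J controls and 1.82 in 129S2SvPAs nephritis, then had a limma adjusted p of 0.115 between nephritic mice. Array weights called 3 for the difference. Leaving out 1 array gave 2 to 4 genes in C57BL6J, 0 to 3 for the difference, 3 to 5 between nephritic mice and 0 to 1 between controls.

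The replicate block changed no call of the 9 genes but that of Krt8 between nephritic mice (adjusted p 0.0627). Over all genes, the block called 33 for the difference of responses in place of 67, the stricter filter 18 and array weights 286. Array weights also called 2022 genes in place of 845 in C57BL6J, 3827 in place of 2424 in 129S2SvPAs, 2256 in place of 999 between nephritic mice and 1601 in place of 1005 between controls; with only the groups compared these were 1415 in 129S2SvPAs and 578 between nephritic mice. The cause was not tested. Cd9 in 129S2SvPAs had an adjusted p of 0.0512 with arrays shifted to one median, Cd44 in C57BL6J 0.0537 and Krt8 between nephritic mice 0.0705 with quantile normalization. The counts of the further lists without 129S2SvPAs anti-GBM GN replicate 1 were chosen after seeing the data. With 3 arrays a group, and with Sox9, Havcr1 and Cd44 near the array medians in controls, small changes could not be resolved.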
